A study of Mus musculus with 3 samples.

Results

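Collagen genes were examined in single cells of mouse pancreatic islets, and the question was which islet cells carry the RNA of each collagen chain. Members were all genes whose symbol is Col, a number, the letter a and a number, which gave 37 of the 16157 genes of the first table and 44 of the 32285 genes of the second, or 44 genes in all. All samples belong to 1 group: islets of Ngn3-CreERT:R26-CAG-TdTomato mice, 10 days after tamoxifen. In such mice a tamoxifen-activated Cre, driven from Neurog3 (also called Ngn3), switches on a red protein from the Rosa26 locus. The series names 3 replicates, with 2 mice pooled in replicate 2 and 2 in replicate 3, and no untreated or Cre-negative islets were analysed here. Comparisons were therefore made between cell classes within these islets. The units were 2 libraries: replicate 1 (library 1) and the joint table of replicates 2 and 3, counted as 1 library. They were taken as independent from the replicate labels alone.

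Collagens are the main proteins of the extracellular matrix, built from chains that wind into triple helices inside the cell and assemble outside it. Fibrillar collagens give tissue its tensile strength, type IV collagen forms the sheet of basement membranes, type VI collagen forms beaded filaments around cells, and smaller families decorate fibrils, link basement membranes or sit in the plasma membrane. In mouse islets, capillaries are known to carry the basement membrane that beta cells rest on, while capsule and peri-vascular fibroblasts are known sources of fibrillar collagen.

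Filters left 853 library 1 cells and 11072 joint-table cells, which were classed by markers that held no collagen. Library 1 and the joint table held 13 and 76 fibroblasts, 12 and 176 mural cells (pericytes and smooth muscle), 26 and 700 endothelial cells, 42 and 364 macrophages, 53 and 527 delta cells, 110 and 962 alpha cells and 449 and 6616 beta cells. The macrophage class also takes in other myeloid cells. Among its clusters were one led by Lyz2, Cybb and Fn1 (16 and 107 cells) and one led by S100a9 and S100a8 (3 and 27 cells). Endocrine cells were classed by 1 of somatostatin, glucagon and insulin, and Ppy (pancreatic polypeptide) was allowed beside it where lower. Ppy passed its own threshold in 48 and 411 delta cells, 47 and 416 alpha cells and 10 and 191 beta cells. In delta cells the PP cell markers, a list that also holds Sst and Pyy, summed to 2275 and 2051 per 10000 and the delta markers to 1500 and 1360. Schwann cells (49), T or NK cells (18) and duct cells (13) were present only among joint-table cells, as were 82 B cells. In library 1, 3 cells that clustered with B cells were left out of the classes. Levels are unique molecular identifier (UMI) counts per 10000 UMIs of a cell, averaged over the cells of a class, and always appear as library 1 first and the joint table second. Each UMI tags a transcript at its 3′ end, so levels were not divided by gene length. Median depth differed widely, with 4001.5 and 2034.5 UMIs in mural cells and 38873 and 20006 in beta cells. The joint table holds 3 barcode blocks that no label ties to a sample. These shared 6, 4 and 4 barcodes among themselves and 5, 1 and 0 with library 1. Own-class markers summed to 216 and 397 per 10000 in fibroblasts, 279 and 214 in mural cells, 258 and 243 in endothelial cells and 147 in Schwann cells.

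Differences between classes were tested with limma on log2(level + 0.05), each column centred on its median gene, n = 2 libraries per class, with Benjamini-Hochberg adjustment over 11422 genes. A value is thus a difference relative to the median gene. Between cells with very different totals this matters: a gene at about 0 in both delta and beta cells comes out near -0.83. With levels near 0 in the compared class, the size of a log2 difference depends on the added 0.05. Of the 44 collagens, 23 passed the filter on low values (0.1 per 10000 in at least 2 columns) and 21 did not. A gene could pass through the one class where it is high, so counts and medians over the 23 are descriptions. The same holds for the other gene lists followed below.

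Collagens of types I and III came first in amount, with their highest levels of any named class in fibroblasts. Summed over all members, collagen RNA reached 254 and 190 UMIs per 10000 in fibroblasts, against 36.5 in Schwann cells, 35.1 and 32.4 in mural cells, 40.8 and 36.4 in endothelial cells and 0.190 to 0.707 in delta, alpha, beta and PP (pancreatic polypeptide) cells of either library. Col3a1, Col1a2 and Col1a1, the chains of types III and I, made up 75.2% and 64.2% of the fibroblast sum. In the heat map of levels by class, this is the bright block in the fibroblast columns.

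**Figure D1:**
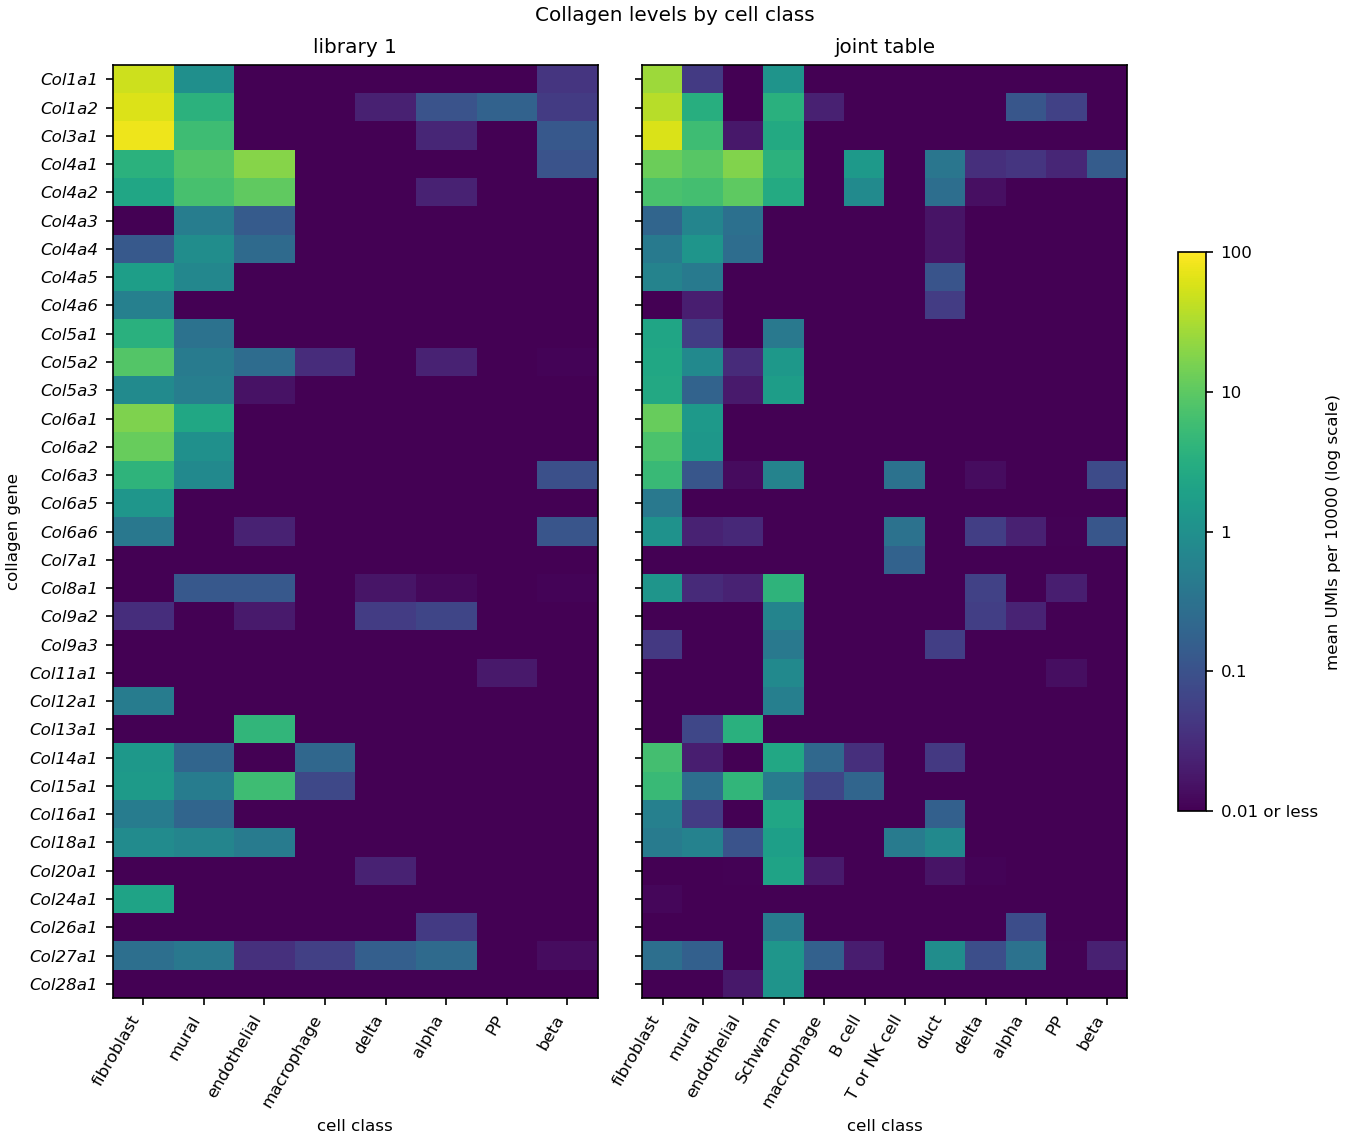
Mean level of the 33 collagens that reached 0.1 UMIs per 10000 in some class (rows) in each cell class of library 1 and the joint table (columns), coloured on a log scale. Fibroblast columns carry the highest values of the map (Col3a1 at 79.0 and 58.3) and endothelial columns the highest Col4a1 and Col13a1. Most endocrine entries of the map stay at the dark end of the scale, which is the low end.

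The type I and type III chain genes are shown here with the DNA around their starts, because they lead the fibroblast over endocrine differences. Col1a1 lies at chr11:94936224-94953042 (plus strand), Col1a2 at chr6:4504814-4541544 (plus) and Col3a1 at chr1:45311538-45349706 (plus), all in GRCm38. RefSeq windows (GRCm38.p6, 250 bases before to 50 bases after the start) were matched for 35 of the 44 symbols. For Col1a2 the window is chr6:4505368-4505667 on the plus strand and for Col3a1 it is chr1:45311288-45311587 on the plus strand. Capitals mark the letters TATAAA (the TATA box), the letters CCAAT (the CCAAT box) and the letters GGGCGG (the GC box), each on either strand.
Col1a2: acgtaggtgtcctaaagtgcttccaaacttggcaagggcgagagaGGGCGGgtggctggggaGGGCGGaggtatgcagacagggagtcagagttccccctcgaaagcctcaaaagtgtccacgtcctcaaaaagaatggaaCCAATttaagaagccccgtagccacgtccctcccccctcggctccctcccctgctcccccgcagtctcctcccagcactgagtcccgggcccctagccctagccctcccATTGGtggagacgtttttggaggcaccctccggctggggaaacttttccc
Col3a1: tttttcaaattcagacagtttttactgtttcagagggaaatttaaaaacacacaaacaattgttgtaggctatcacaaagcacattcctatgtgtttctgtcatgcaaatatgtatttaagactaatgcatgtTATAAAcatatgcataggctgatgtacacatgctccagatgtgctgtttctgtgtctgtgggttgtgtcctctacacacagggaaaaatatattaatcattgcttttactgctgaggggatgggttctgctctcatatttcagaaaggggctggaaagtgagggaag
The Col1a2 window held 2 CCAAT and 2 GGGCGG matches and the Col3a1 window 1 TATAAA match. Of 32851 RefSeq windows of this length, 13.6% held the TATA box letters, 37.4% the CCAAT box letters and 35.7% the GC box letters. No match overlapped another in the windows shown. A match is a description of letters, not a site.

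Col3a1 reached 79.0 and 58.3 per 10000 in fibroblasts, with 50.7, 63.8 and 65.4 in the 3 barcode blocks. The same gene was at 5.83 and 5.80 in mural cells, 0 and 0.0184 in endothelial cells, 2.71 in Schwann cells, 0.0274 and 0 in alpha cells and 0.125 and 0.00125 in beta cells. Fibroblast values did not overlap those of any other named class in any block. In library 1, 277 of the 298 Col3a1 UMIs of beta cells came from 1 cell, which also held 99 of the 102 Col1a1 UMIs. The fibroblast over endocrine difference for Col3a1 was 9.64 ± 0.40 log2 (SE, limma adjusted p = 5.79e-09), endocrine being the mean of beta, alpha and delta cells.

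Of these genes Col1a1 was the most restricted to fibroblasts among named classes. It stood at 49.9 and 26.3 in fibroblasts (24.6, 25.2 and 30.7 by block), against 0.967 and 0.0481 in mural cells, 0 and 0 in endothelial cells and 1.17 in Schwann cells. Fibroblasts held 91.7% and 97.1% of the Col1a1 UMIs of named classes, but 45.9% and 59.9% of those of all cells kept. Most of the rest lay in 6 library 1 and 12 joint-table cells of a cluster led by Cxcl13, Dcn and Saa3, which had too few fibroblast markers among its leading genes to be named and held 1338 and 367 Col1a1 UMIs (51.1 and 21.3 per 10000). Another unnamed library 1 cluster of 11 cells, with Msln and Krt19 among its leading genes, held 117 (4.40 per 10000). Col1a2, whose chain joins that of Col1a1 in type I collagen, was at 62.2 and 37.5 in fibroblasts but also at 3.77 and 3.27 in mural cells, 3.52 in Schwann cells and 0.105 and 0.119 in alpha cells. The type I pair thus differed in where it was seen: Col1a1 was 39.7% and 38.9% of Col1a1 plus Col1a2 UMIs in fibroblasts, 23.3% in Schwann cells, 46.7% and 1.49% in mural cells (1 library 1 cell held all its Col1a1 UMIs) and 0% and 2.47% in alpha cells. The limma differences of fibroblast over mural cells were 6.87 ± 0.72 log2 for Col1a1 (adjusted p = 3.39e-05) and 3.79 ± 0.42 for Col1a2 (adjusted p = 5.86e-05).

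Type V collagen, which sits inside type I fibrils and sets their width, had its highest levels in fibroblasts of both libraries, though not in every barcode block. Col5a1 was at 3.50 and 2.22, Col5a2 at 8.45 and 2.38 and Col5a3 at 0.816 and 2.62 in fibroblasts. The balance of the chains in fibroblasts differed between libraries, with Col5a2 highest in library 1 and the joint-table values close together. Joint-table Schwann cells came second, with Col5a1 at 0.416, Col5a2 at 1.35 and Col5a3 at 1.67. In block 3, Col5a3 was at 3.68 in Schwann cells and 3.58 in fibroblasts. In library 1 mural cells came second, at 0.322, 0.461 and 0.507. Library 1 also held Col24a1, another fibrillar collagen, at 2.11 (63 UMIs in 11 of 13 fibroblasts) and Col12a1 at 0.485. In the joint-table fibroblasts Col24a1 had 1 UMI (0.0118) and Col12a1 none. Of library 1 fibroblasts, 12 of 13 came from a cluster led by Dcn, Saa3, C3 and Lum, and of joint-table fibroblasts 75 of 76 from one led by Dcn, Gsn, Lum, Gpx3, Gdf10 and Vtn. Whether these are different fibroblasts or different libraries cannot be told apart. Library 1 fibroblasts also held mesothelial markers, which summed to 7.04 per 10000 with 0 of 9 at 0. In library 1 mural and endothelial cells all 9 were at 0. Whether mesothelial cells add to the library 1 fibroblast levels was not tested.

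Type VI collagen also had its highest levels in fibroblasts. Col6a1 reached 17.1 and 11.5, Col6a2 11.9 and 7.27 and Col6a3 3.97 and 5.18 in fibroblasts. Mural cells had Col6a1 at 2.43 and 1.46 and Col6a2 at 1.01 and 1.30, endothelial cells had no UMI of Col6a1 in either library, and Schwann cells had none of Col6a1 or Col6a2. The limma difference of fibroblast over mural cells was 2.89 ± 0.39 log2 for Col6a1 (adjusted p = 0.000265). Col6a5 and Col6a6, genes of chains that can take the place of the Col6a3 chain, were at 1.26 and 0.417 and at 0.407 and 1.08. Col6a5 rested on few cells: 1 fibroblast held 27 of its 30 joint-table UMIs and another 18 of the 31 in library 1.

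Fibril-associated collagens were led by Col14a1, which binds fibrils and links them to proteoglycans. It stood at 1.34 and 6.43 in fibroblasts, 2.54 in Schwann cells and 0.215 and 0.226 in macrophages, and at 0 in alpha and delta cells. Col16a1 was at 0.478 and 0.555 in fibroblasts and 2.33 in Schwann cells. Over endocrine cells the limma fibroblast differences were 5.53 ± 0.55 log2 for Col14a1 (adjusted p = 8.41e-06) and 3.11 ± 0.28 for Col16a1 (adjusted p = 3.64e-06).

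By limma (n = 2 libraries), 19 collagens were higher and 0 lower in fibroblasts than in endocrine cells (adjusted p under 0.05, with 0 lower also at an unadjusted p under 0.05), where 16.3% of all genes were called higher and 17.7% lower. The median difference was 5.45 log2 over the 23 tested collagens and -0.12 over all genes tested. Members such as Col6a5 passed the filter on low values through fibroblasts alone, so this count and this median are descriptions. Over endothelial cells 16 were higher and 2 lower in fibroblasts (9.47% and 10.0% of all genes), the lower ones being Col13a1 at -6.15 log2, with fibroblasts at 0, and Col4a1 at -1.28 (adjusted p = 0.0426). Over mural cells 14 were higher and 2 lower (9.67% and 8.13% of all genes), the lower ones being Col4a3 and Col4a4. With DESeq2 the sums of calls were 11 in the fibroblast over endothelial and 3 in the fibroblast over mural comparison, against 18 and 16 with limma.

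**Figure D2:**
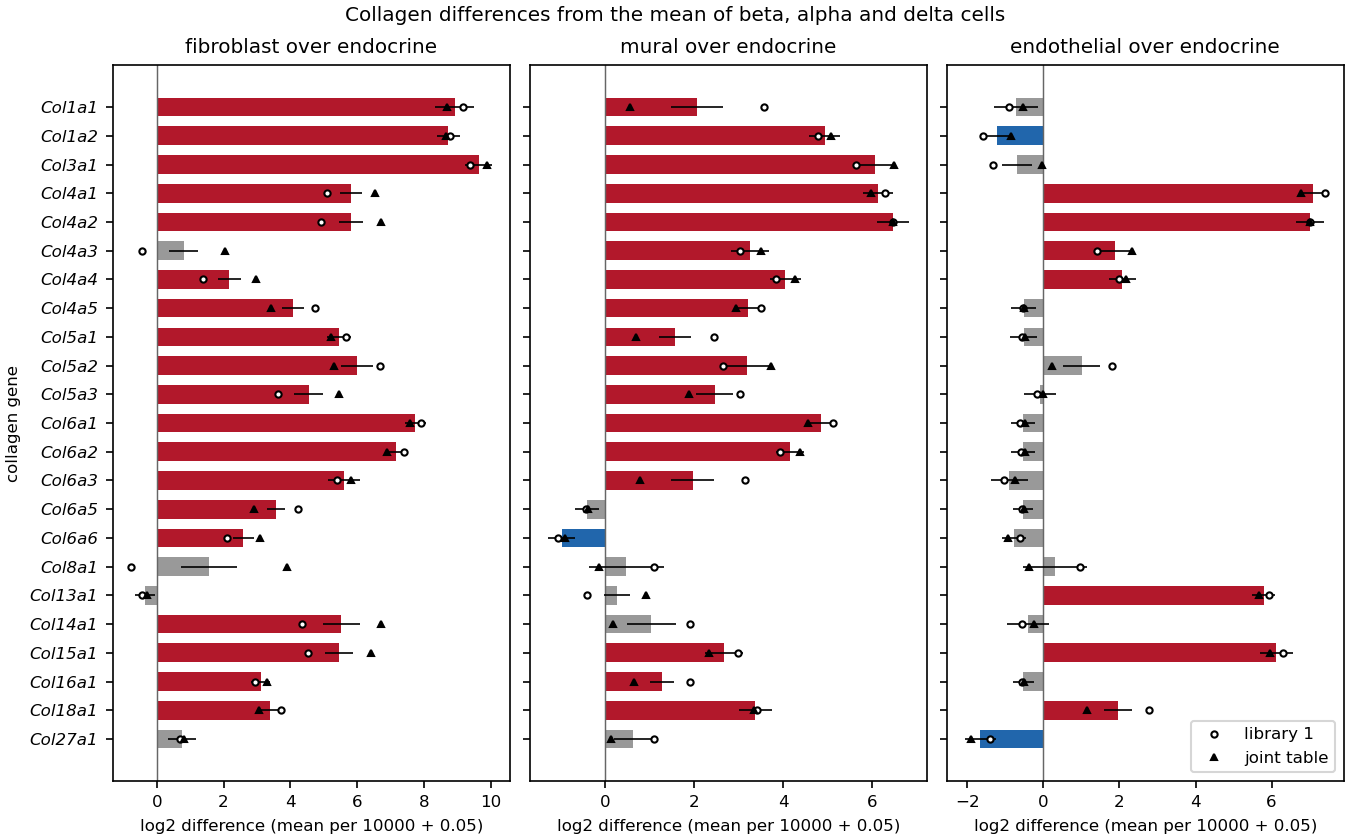
Log2 difference in level for each of the 23 tested collagens in fibroblast, mural and endothelial cells, each over endocrine cells. Bars carry standard errors from limma, with open circles for library 1 and triangles for the joint table. Red bars were called higher, blue bars lower and grey bars neither at adjusted p under 0.05. Col3a1 and Col1a1 stand at 9.64 and 8.92 in fibroblast over endocrine.

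Endothelial cells carried a basement membrane set. Col4a1 and Col4a2, whose chains assemble together in the most widespread type IV collagen, and Col15a1, a basement membrane collagen with attached glycosaminoglycan chains, made up 86.0% and 87.8% of the endothelial collagen sum. Col4a1 and Col4a2 lie head to head on chromosome 8 (Col4a1 at chr8:11198423-11312826 on the minus strand and Col4a2 at chr8:11312805-11449287 on the plus strand), with overlapping 5′ ends. Their RefSeq windows (GRCm38.p6) are chr8:11312777-11313076 on the minus strand and chr8:11312555-11312854 on the plus strand and share 78 bases. They are shown because the pair stayed together in some classes and came apart in others; capitals again mark the 3 motifs on either strand.
Col4a1: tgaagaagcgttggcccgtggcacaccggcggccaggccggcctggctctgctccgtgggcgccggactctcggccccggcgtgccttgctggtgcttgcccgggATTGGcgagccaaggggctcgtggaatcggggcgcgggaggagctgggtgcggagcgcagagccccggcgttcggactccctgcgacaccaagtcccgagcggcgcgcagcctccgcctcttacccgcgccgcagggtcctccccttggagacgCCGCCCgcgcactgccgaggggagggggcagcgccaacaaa
Col4a2: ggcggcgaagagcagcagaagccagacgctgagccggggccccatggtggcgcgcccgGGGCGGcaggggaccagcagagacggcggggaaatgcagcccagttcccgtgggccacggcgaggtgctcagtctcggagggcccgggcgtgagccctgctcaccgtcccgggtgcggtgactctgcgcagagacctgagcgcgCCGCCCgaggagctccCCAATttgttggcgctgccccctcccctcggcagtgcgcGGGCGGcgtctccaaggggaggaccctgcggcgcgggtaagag
The Col4a1 window held 1 CCAAT and 1 GGGCGG match and the Col4a2 window 1 CCAAT and 3 GGGCGG matches. The GGGCGG match of Col4a1 and the one of Col4a2 nearest its end are the same bases, chr8:11312812-11312817.

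Col4a1 was at 3.55 and 12.8 per 10000 in fibroblasts, 3.69 in Schwann cells and 8.08 and 9.28 in mural cells, and reached 18.8 and 17.5 in endothelial cells, with 15.9, 19.2 and 18.1 in the blocks. Col4a2 was at 2.32 and 7.19 in fibroblasts, 2.77 in Schwann cells and 6.77 and 6.45 in mural cells, against 10.6 and 10.2 in endothelial cells. Endothelial levels were above mural and fibroblast ones in both libraries. The mural over endothelial difference did not pass for Col4a1 (-0.95 ± 0.40 log2, limma adjusted p = 0.126) or Col4a2 (-0.54 ± 0.44, adjusted p = 0.447). Over endocrine cells, endothelial Col4a1 was higher by 7.09 ± 0.33 log2 (adjusted p = 1.18e-08) and Col4a2 by 7.01 ± 0.36 (adjusted p = 2.18e-08).

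Col13a1, a collagen that spans the plasma membrane, was the most endothelial of all members. Fibroblasts and Schwann cells had no UMI of it and mural cells had 0 and 4. Endothelial cells had 116 UMIs in library 1, all of those in named classes (20 of 26 cells, level 4.33), and 920 in the joint table (393 of 700 cells, level 3.46), which was 98.8% of its UMIs in the named classes and 84.0% of those in all cells kept there. Beta cells had 0 and 6. With 0 of 76 joint-table fibroblasts holding a UMI, at a median depth of 2678.5 UMIs, the share of such cells may be up to 3.95% (3 counts of the total). This limits cells with a UMI, not cells expressing the gene, and like all intervals given here covers counting error only. The endothelial over endocrine difference for Col13a1 was 5.79 ± 0.30 log2 (limma adjusted p = 2.15e-08).

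Col15a1 stood at 1.51 and 5.13 in fibroblasts and 0.480 and 0.274 in mural cells, against 5.65 and 4.24 in endothelial cells. Mural cells were lower than endothelial cells by limma (-3.46 ± 0.52 log2, adjusted p = 0.000378), while fibroblasts were below endothelial cells in library 1 and above them in the joint table (-0.66 ± 0.52, adjusted p = 0.44). Col18a1, the related collagen from which endostatin is cut, was at 0.855 and 0.456 in fibroblasts, 1.84 in Schwann cells and 0.663 and 0.604 in mural cells, against 0.454 and 0.104 in endothelial cells. The 2 related genes were thus ordered differently over the classes.

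In endothelial over endocrine cells 7 collagens were higher by limma (Col4a1, Col4a2, Col15a1, Col13a1, Col4a4, Col18a1 and Col4a3) and 2 lower (Col27a1 at -1.66 log2 and Col1a2 at -1.22), where 18.7% of all genes were higher and 20.4% lower. The 2 lower genes are those seen in alpha cells, described further on.

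Mural cells, which wrap the capillaries, carried both basement membrane and fibrillar genes, with a type IV pair at higher levels than in other named classes of both libraries, though not in every barcode block. Col4a3 and Col4a4, genes of a second type IV network known from kidney filters, lie head to head on chromosome 1 with starts 72 bases apart. Col4a3 was at 0.491 and 0.671 (2 and 28 UMIs) and Col4a4 at 0.908 and 1.20 (4 and 46 UMIs) in mural cells, so the library 1 values rest on few molecules. In endothelial cells Col4a3 was at 0.143 and 0.299 and Col4a4 at 0.238 and 0.265. By block, Col4a3 was at 0.581, 0.206 and 1.07 in mural cells, against 0.226, 0.483 and 0.236 in endothelial cells, so its order turned in block 2. Col4a4 was at 1.02, 1.25 and 1.42 in mural cells, against 0.254, 0.308 and 0.244 in endothelial cells. Fibroblasts were below mural cells by 2.45 ± 0.53 log2 for Col4a3 (limma adjusted p = 0.00719) and by 1.88 ± 0.43 for Col4a4 (adjusted p = 0.00968). Mural over endothelial, Col4a4 differed by 1.98 ± 0.43 (adjusted p = 0.00526) and Col4a3 by 1.39 ± 0.53 (adjusted p = 0.0871).

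Col4a5, whose chain joins those of Col4a3 and Col4a4, was at 1.75 and 0.623 in fibroblasts and 0.707 and 0.452 in mural cells, and the difference of fibroblast over mural cells did not pass (0.86 ± 0.39 log2, limma adjusted p = 0.151). Col4a6, its head-to-head neighbour on chromosome X, reached 0.553 in library 1 fibroblasts and 0 in the joint-table ones. Mural cells also carried Col3a1 (5.83 and 5.80), Col1a2 (3.77 and 3.27) and Col6a1 (2.43 and 1.46), with Col1a1 at 0.967 and 0.0481.

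Beside these fibrillar values, the 18 fibroblast markers summed to 143 and 135 per 10000 in mural cells, with 13 and 11 of the 18 at 0, among them Lum, Pdgfra, Dpt and Clec3b in both libraries. In library 1, a single mural cell held all 21 Col1a1 UMIs and all 17 Col6a3 UMIs of the class, 47 of the 79 Col4a1 UMIs, 22 of 29 for Col6a1 and 21 of 49 for Col3a1. With that cell and the 3 other non-fibroblast cells of 10 or more Col1a1 UMIs left out, Col1a1 no longer differed in mural over endocrine cells by limma (-0.01 log2, adjusted p = 0.980, against 2.06 with them), nor did Col6a3 (-0.10, adjusted p = 0.845, against 1.96). Col5a1 (0.11, adjusted p = 0.778) and Col5a3 (0.69, adjusted p = 0.249) also lost their calls.

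By limma, 17 collagens were higher and 1, Col6a6, was lower in mural than in endocrine cells, where 18.0% of all genes were higher and 24.1% lower. Against endothelial cells 14 were higher and 2, Col13a1 and Col15a1, lower (8.47% and 11.4% of all genes). That sum of 16 was 6 with DESeq2 and 10 without the 4 cells just named.

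Schwann cells, the glia of islet nerves, were found in the joint table alone and so have no test. Their collagen RNA was spread evenly: the 3 highest members held 30.9% of the sum, against 64.2% in joint-table fibroblasts, and 22 members were at 0.1 or more in each of these classes. Col8a1, a short-chain network collagen, was highest at 4.05 (45 UMIs in 21 of 49 cells), against 1.20 in joint-table fibroblasts and 0.024 in endothelial cells. Col4a1 (3.69), Col1a2 (3.52), Col4a2 (2.77), Col3a1 (2.71) and Col14a1 (2.54) came next.

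Several collagens were highest in Schwann cells. Col20a1, a fibril-associated collagen, was at 2.06 (23 UMIs in 12 of 49 cells), while fibroblasts and mural cells had none and endothelial cells 2 UMIs in 700 cells. Block 1, with 25 of the 49 Schwann cells, held 19 of the 23 Col20a1 UMIs. Col28a1, a collagen known from peripheral nerve, was at 1.19 (12 UMIs in 11 cells) with none in fibroblasts or mural cells and 4 UMIs in endothelial cells. Among joint-table classes Col16a1 (2.33, 26 UMIs), Col18a1 (1.84, 19 UMIs) and Col27a1 (1.28, 12 UMIs) were also highest there. So were Col11a1 (0.794) and Col9a2 (0.646), on 9 UMIs each. Col12a1 (0.532), Col26a1 (0.466) and Col9a3 (0.407) were highest there too, but rest on 5 UMIs each. In these cells 15 of the 18 fibroblast markers, Dcn, Lum and Pdgfra among them, were at 0, and the list summed to 16.3 per 10000. Median depth was 1948 UMIs, so that 1 UMI in a cell weighs much.

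**Figure D3:**
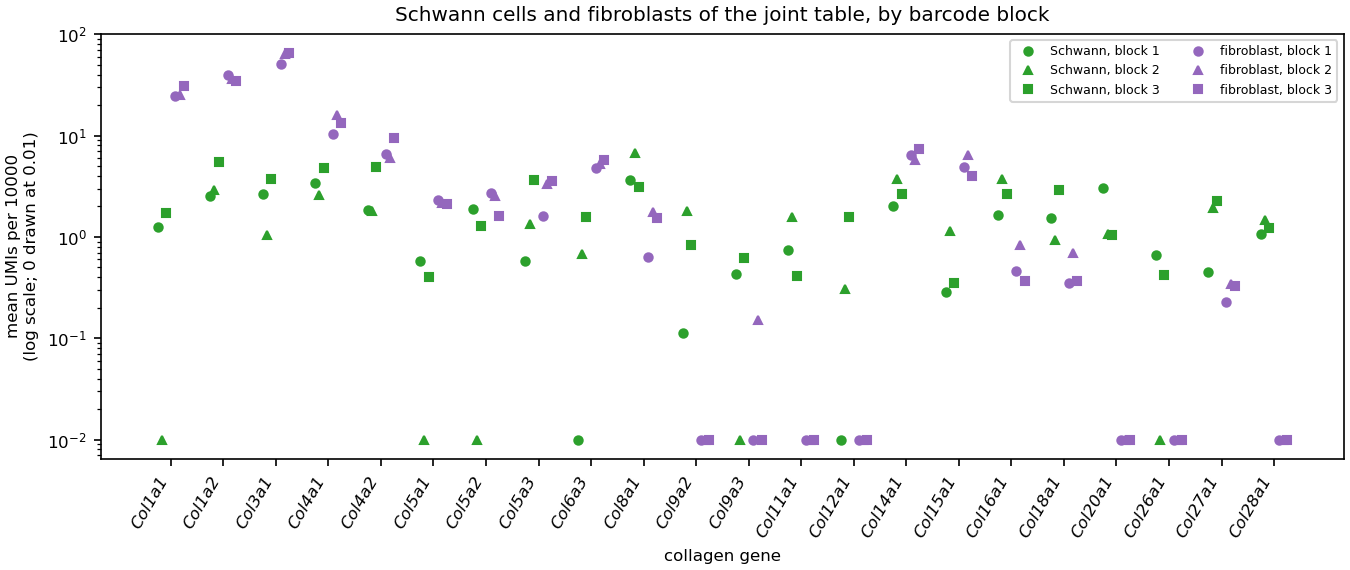
Level of each collagen in Schwann cells and in fibroblasts of the joint table, by barcode block, on a log axis with 0 drawn at 0.01. Col8a1, Col20a1 and Col28a1 lie higher in Schwann cells (4.05, 2.06 and 1.19 over all blocks) than in fibroblasts (1.20, 0 and 0), while Col1a1 and Col3a1 lie far higher in fibroblasts.

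Immune cells carried little collagen RNA. Macrophages summed to 0.378 and 0.543 per 10000, of which Col14a1 gave 0.215 and 0.226 (7 UMIs in 5 of 42 cells and 30 UMIs in 28 of 364). Col27a1 was at 0.0576 and 0.178 in macrophages. By limma 1 collagen was higher in macrophages than in endocrine cells, Col14a1 (2.26 ± 0.55 log2, adjusted p = 0.00522), and 2 were lower, Col4a1 (-0.96) and Col6a6 (-0.97), where 19.7% of all genes were higher and 21.0% lower. Both lower ones are the genes of beta cells that follow. These 3 calls fell to 0 with a pseudocount of 0.5.

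Endocrine cells stood far below the stroma, but each hormone class had collagens that recurred in both libraries. In beta cells Col4a1 was at 0.107 and 0.144 (0.141, 0.141 and 0.148 by block), with 207 UMIs in 148 of 449 cells and 1973 UMIs in 1570 of 6616 cells. Because beta cells are so many, they held 23.4% and 27.3% of the Col4a1 UMIs of named classes (19.8% and 23.4% of those of all cells kept). Their partner gene was nearly missing: Col4a2 had 2 and 25 UMIs in the same cells.

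Of the Col4a1 plus Col4a2 UMIs, Col4a1 was 66.0% and 65.6% in fibroblasts, 62.7% and 59.6% in mural cells, 61.8% and 63.1% in endothelial cells and 58.7% in joint-table Schwann cells. In beta cells it was 99.0% (95% exact interval 96.6 to 99.9) and 98.7% (98.2 to 99.2). The interval of beta cells lay above these shares in both libraries. Joint-table alpha cells stood at 82.4% (28 and 6 UMIs, 65.5 to 93.2) and delta cells at 76.9% (10 and 3 UMIs, 46.2 to 95.0). Gm15418, an antisense gene over the 3′ end of Col4a1, had 0 and 12 UMIs in beta cells and 1 and 14 in alpha cells. Col4a1 is 1 of 5 members with an opposite-strand gene at the 3′ end, beside Col4a3, Col9a3, Col10a1 and Col18a1. The sources used here do not say whether strand was used in counting. Endothelial markers summed to 0.281 and 0.375 per 10000 in beta cells, with 3 of 18 and 1 of 19 at 0.

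**Figure D4:**
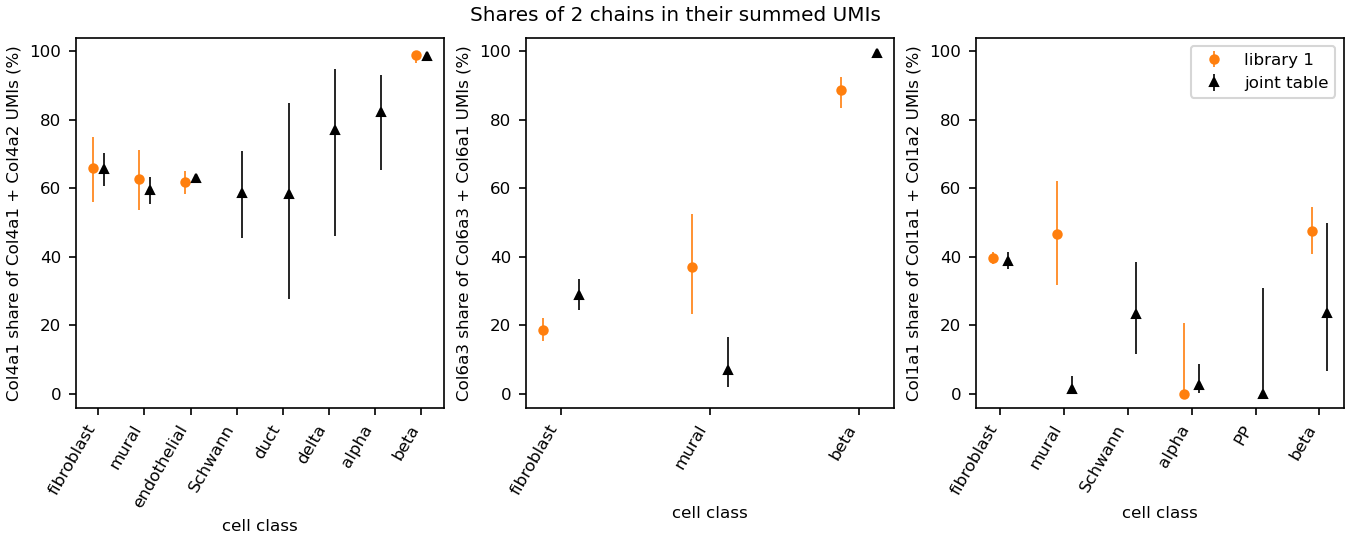
Share of UMIs held by the first gene of a pair of chains (Col4a1 of Col4a1 plus Col4a2, Col6a3 of Col6a3 plus Col6a1, Col1a1 of Col1a1 plus Col1a2), in percent, by class and library, with 95% exact intervals, for pairs with 10 UMIs or more. For Col4a1, endothelial cells stand at 61.8% and 63.1% and beta cells at 99.0% and 98.7%.

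Beta cells also carried Col6a3 at 0.0943 and 0.0807 (187 and 1319 UMIs) and Col6a6 at 0.115 and 0.116 (205 and 1555 UMIs). Of the UMIs of named classes, beta cells held 60.9% and 90.6% for Col6a3 and 95.3% and 95.9% for Col6a6. Of those of all cells kept, they held 42.9% and 81.1% for Col6a3 and 84.7% and 84.6% for Col6a6. Col6a1, the usual partner, had 24 UMIs in library 1, 20 of them in 1 cell, and 5 in the joint table. Of the Col6a3 plus Col6a1 UMIs, Col6a3 was 18.8% and 28.9% in fibroblasts, against 88.6% and 99.6% in beta cells. Joint-table alpha, delta and Schwann cells had 3, 4 and 5 Col6a3 UMIs and 0 of Col6a1. Col6a3 without Col6a1 was thus not seen in beta cells alone, though these counts are small.

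Shares of cells with a UMI depend on depth, so cells were also thinned to 2000 UMIs. Before thinning, Col4a1 was seen in 0% and 0.275% of macrophages, whose median depth was 6502 and 3169.5 UMIs, and in 1.82% and 2.81% of alpha cells, against 33.0% and 23.7% of beta cells. After thinning the shares were 0% in macrophages of both libraries (0 of 38 and 0 of 272 cells), 0% and 0.630% in delta cells and 0% and 0.656% in alpha cells, against 2.01% and 2.80% in beta cells. For Col6a3 the thinned shares were 0% and 0.210% in delta cells and 0% in alpha cells of both libraries, against 1.57% and 1.65% in beta cells. For Col6a6 they were 0% and 1.05% in delta cells and 0% and 0.219% in alpha cells, against 2.24% and 2.09% in beta cells. In the joint table the thinned intervals for Col4a1 were 0.130% to 1.83% in delta cells and 0.241% to 1.42% in alpha cells, both below that of beta cells (2.41% to 3.22%), while library 1 intervals overlapped. These intervals cover counting error over the cells of 1 library, not the spread between mice or libraries.

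Delta cells were lower than beta cells in Col4a1 by 2.24 ± 0.40 log2 (limma adjusted p = 0.00643) and in Col6a6 by 2.01 ± 0.38 (adjusted p = 0.00859). Alpha cells were lower than beta cells in Col4a1 by 1.83 ± 0.40 (limma adjusted p = 0.0219) and in Col6a6 by 1.93 ± 0.38 (adjusted p = 0.0108). By barcode block, the Col6a6 levels of 0.0478, 0.0190 and 0.111 in delta cells overlapped those of 0.103, 0.129 and 0.123 in beta cells, whereas Col4a1 levels in delta and alpha cells lay below those in beta cells in every block. Without centring the differences were smaller, at -1.42 and -1.18 for delta cells and -1.23 and -1.33 for alpha cells, and the call for Col4a1 in alpha cells was lost. For Col6a3 the differences of -2.11 (delta over beta, limma adjusted p = 0.0589) and -2.0 (alpha over beta, adjusted p = 0.0930) did not pass. No collagen was called higher in either comparison by limma (0 at an unadjusted p under 0.05 in delta and 1 in alpha over beta cells). With edgeR or DESeq2, Col27a1 was called higher and 3 collagens lower in alpha over beta cells, and 3 lower in delta over beta cells. Limma also called Col27a1 higher in alpha cells without centring (2.28 log2, adjusted p = 0.0134) and with hormones left out of cell totals (2.25, adjusted p = 0.0285), and in the last setting it called Col25a1 higher in delta cells (1.56, adjusted p = 0.00927). Of all genes 2.73% were higher and 2.69% lower in delta than in beta cells, and 2.29% higher and 1.51% lower in alpha than in beta cells. With a pseudocount of 0.5 or without the filter on low values no collagen was called in either comparison.

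Alpha cells carried Col27a1, a fibrillar collagen known from cartilage, at 0.244 and 0.326 (0.337, 0.317 and 0.315 by block), with 0.162 and 0.0907 in delta cells, against 0.0138 and 0.0231 in beta cells. It was seen in 20.9% and 19.2% of alpha cells and 6.01% and 4.84% of beta cells, and after thinning in 5.61% and 6.46% of alpha cells and 0.671% and 0.438% of beta cells. Macrophages, after thinning, had 0% and 3.68%. Alpha cells were above beta cells in both libraries and every block. The limma difference of 1.69 ± 0.50 log2 did not pass (adjusted p = 0.0998), whereas edgeR on the same classes gave 2.69 (adjusted p = 5.7e-08).

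Col1a2 in alpha cells was at 0.105 and 0.119, with 16 and 79 UMIs in 13 and 71 cells. Col1a1, the other type I chain, had 0 and 2 UMIs there. Thinned shares for Col1a2 were 1.87% and 1.64% in alpha cells and 0% in delta cells and macrophages of both libraries, against 0.447% and 0.0151% in beta cells. The alpha over beta difference was 0.60 ± 0.42 log2 (limma adjusted p = 0.698), and 99 of the 112 library 1 beta UMIs came from 1 cell. In alpha cells the fibroblast markers summed to 0.456 and 0.418 per 10000 (12 and 7 of 18 at 0) and the mural markers to 0.944 and 1.44 (13 of 17 and 9 of 18 at 0). PP cells had Col1a2 at 0.184 and 0.0596. Col26a1 was at 0.0482 and 0.0875 in alpha cells, which held 87.5% of its joint-table UMIs in named classes and 54.9% of those in all cells kept.

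Delta cells had no collagen above 0.1 in both libraries. Their leading members were Col27a1 at 0.162 and 0.0907, Col25a1, a membrane-spanning collagen known from neurons, at 0.0858 and 0.0679, Col8a1 at 0.0169 and 0.0592, and Col9a2, a fibril-associated collagen of cartilage, at 0.0517 and 0.0555.

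**Figure D5:**
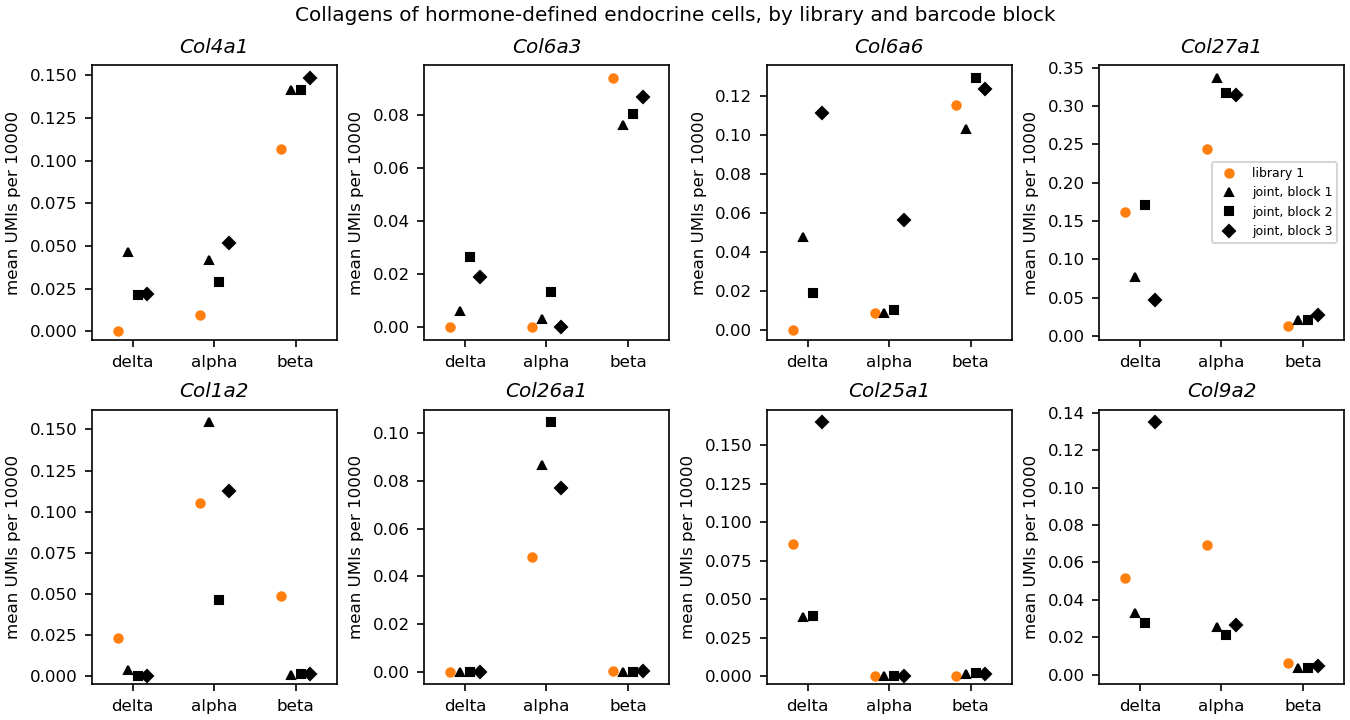
Level of 8 collagens in delta, alpha and beta cells, in UMIs per 10000, with a point each for library 1 and the 3 barcode blocks of the joint table. Col4a1, Col6a3 and Col6a6 lie highest in beta cells (0.107 and 0.144 for Col4a1), and Col27a1 and Col1a2 in alpha cells of the joint table (0.326 and 0.119).

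The remaining members were scarce. Of the 44 collagens, 33 reached 0.1 in some class of either library and 11 did not: Col2a1, Col6a4, Col8a2, Col9a1, Col10a1, Col11a2, Col17a1, Col19a1, Col22a1, Col23a1 and Col25a1. Col2a1 and Col23a1 had 0 UMIs in the named classes, and Col7a1 passed 0.1 only through 1 UMI in T or NK cells. Within beta cells Col11a2 had 16 and 143 UMIs, Col20a1 14 and 83 and Col6a4 4 and 46.

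Genes that process collagen were followed as a fixed list of 36, of which 30 were tested by limma. In fibroblasts 23 were higher and 1 lower than in endocrine cells, where 16.3% of all genes were higher and 17.7% lower. The largest changes were Sparc (9.48 log2), a collagen-binding matrix protein, Pcolce (5.97), which aids removal of procollagen ends, and Loxl1 (5.93), a lysyl oxidase that cross-links. Mural cells had 16 higher and 4 lower (18.0% and 24.1% of all genes), with Sparc at 7.89, Serpinh1, the collagen chaperone, at 4.86 and Pcolce at 4.11. Endothelial cells had 10 higher and 5 lower (18.7% and 20.4% of all genes), with Sparc at 7.96, Serpinh1 at 4.39 and Plod1, a lysyl hydroxylase, at 3.27. The median over this list was 2.43 in fibroblasts, 1.11 in mural and 0.30 in endothelial cells, against -0.12, -0.25 and -0.13 over all genes.

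Macrophages had 8 of these 30 genes higher and 6 lower, against 19.7% and 21.0% of all genes, with a list median of -0.21 against -0.15 over all genes. Their largest changes were Tgm2 (3.32), a transglutaminase, Colgalt1 (2.95), which adds galactose to collagen, and P3h4 (-2.63). Among endocrine cells, Bmp1 (-2.75), the procollagen C-proteinase, and Mia3 (-1.21), which helps export procollagen, were lower in delta than in beta cells.

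Of the collagen receptors, 9 of 12 were tested. Itga1, an integrin that binds collagen IV, was higher than in endocrine cells by 4.10 log2 in fibroblasts, 6.29 in mural cells and 5.94 in endothelial cells (limma). Ddr2, a receptor kinase for fibrillar collagen, was higher by 3.93 in fibroblasts and 3.66 in mural cells, while Ddr1 was lower by 3.38 in endothelial cells and 2.62 in macrophages. Lair1, an inhibitory receptor of immune cells, was higher by 5.49 in macrophages. In all, 4 were higher and 1 lower in fibroblasts, 5 and 2 in mural cells, 3 and 2 in endothelial cells and 3 and 2 in macrophages. Of all genes, 16.3% were higher and 17.7% lower in fibroblasts, 18.0% and 24.1% in mural cells, 18.7% and 20.4% in endothelial cells and 19.7% and 21.0% in macrophages, and with 9 genes tested nothing is read from these counts. The endothelial count of 3 includes Endou (2.98), which the list also holds but which encodes an RNA-cutting enzyme and is no receptor.

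Of 14 genes of collagen breakdown and its inhibitors, 10 were tested. Fibroblasts had 7 higher and 1 lower than endocrine cells, led by the inhibitors Timp3 (6.54 log2) and Timp1 (5.01) and the gelatinase Mmp2 (5.63). Macrophages had 6 higher, led by Mmp14 (3.70), a membrane-bound collagenase, Mmp9 (3.24) and Timp2 (2.88). Endothelial cells had 2 higher, Timp3 (8.44) and Mmp15 (3.72), and 1 called lower, Mmp8 (-0.50). With the centring, a gene at about 0 in both endothelial and endocrine cells comes out near -0.50. Nothing is therefore read from the Mmp8 call. Mural cells had 4 higher and 1 lower. For all genes the shares higher and lower were 16.3% and 17.7% in fibroblasts, 19.7% and 21.0% in macrophages, 18.7% and 20.4% in endothelial cells and 18.0% and 24.1% in mural cells, so that 2 of 10 in endothelial cells is near the share of all genes. List medians were 4.20 in fibroblasts, 1.87 in macrophages, -0.36 in endothelial and 0.62 in mural cells. Timp2 was higher than in beta cells in both delta (1.78) and alpha cells (1.90). It was the 1 gene of the 10 called higher in each, while 2 were lower in delta and 0 in alpha cells. Of all genes, 2.73% were higher and 2.69% lower in delta cells, and 2.29% and 1.51% in alpha cells.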

How the data were processed

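Islet cells of the 3 samples were profiled with the 10x Genomics 3′ system, per the labels. For replicate 1 the deposited values are raw UMI counts per gene and cell. The authors deposited 1 joint table for replicates 2 and 3 whose values, as deposited, are the natural log of 1 plus 10000 times the count over the cell total. Per the submitters' processing notes the tools were Cell Ranger (3.2.0 and 5.0.0), cutadapt 2.5, FastQC 0.11.8 and Seurat 4.0.0, with mm10. From the values of the joint table, 100% of 28955174 nonzero entries of the distinct cells came out as whole UMIs. It has 16050 columns, of which 3008 repeat others and were dropped, leaving 13042 cells in 3 barcode blocks (5894, 3008 and 4140), and library 1 has 1146 cells. Total depth was 27474046 UMIs in library 1 and 196833349 UMIs in the joint one. No label ties blocks to samples, so the joint table counts as 1 library, and n = 2. Nothing says that mice are separate beyond the replicate labels. The p-values measure how far class differences vary between these libraries once the library shift is removed, with 1 spread shared by all classes.

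Cells under 500 genes, under 1000 UMIs or over 20% mitochondrial UMIs were dropped, and the highest doublet scores were removed at 0.8% per 1000 cells. Cells were clustered with scanpy 1.11.5 without collagen genes and named from fixed markers. Non-endocrine cells of both libraries were clustered together, which, like the doublet rate, was chosen after seeing the data. Endocrine cells were split by hormone, each above 5 times its median in non-endocrine cells plus 5 UMIs, and Ppy was allowed beside a higher hormone. Limma 3.58.1 (R 4.3.3) was fitted on log2(mean per 10000 + 0.05) with the library as block and the threshold at adjusted p under 0.05. It was tested on simulated data. Alternatives used edgeR 4.0.16 and DESeq2 1.42.0 on summed recovered counts. All members at 0.1 per 10000 in a class are named, and of each other list up to 3 genes with the largest called change. Members and lists were chosen with earlier results of these data known. Intervals are exact (Clopper-Pearson), and limits at a count of 0 take 3 counts. Sequences come from RefSeq, GRCm38.p6, and gene positions from a GENCODE annotation of GRCm38.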

Additional observations from a re-analysis of the deposited data

How the results depend on the processing

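Of 103 called collagen differences, none turned round under the planned settings. The calls lost were 42 with DESeq2, 17 with a pseudocount of 0.5, 13 without the filter on low values, 11 with edgeR under either scaling, 9 with UMIs summed over a class, 8 without the block for the library, 6 without median centring, 5 with hormones left out of cell totals and 4 with a pseudocount of 0.01. No call was lost with other sub-clustering resolutions or without doublet removal, and leaving out a barcode block lost 3, 2 and 4. With 1 library left out there is no test, and all 103 values kept their sign. Without the non-fibroblast cells of 10 or more Col1a1 UMIs, a setting added after seeing the data, 9 calls were lost and mural over endocrine turned to -0.012 for Col1a1 and -0.10 for Col6a3. The cause of the other changes was not tested.

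Counts of calls moved by over 1.5 times as follows. Macrophage over endocrine gave 0 (pseudocount 0.5) or 1 (no filter, summed UMIs or no replicate block), against 3. Fibroblast over endothelial gave 11, mural over endothelial 6 and fibroblast over mural 3 with DESeq2, and mural over endothelial 10 without the Col1a1-rich cells. Delta over beta gave 0 (pseudocount 0.5, no filter), 4 (hormones left out) or 8 (at most 10% mitochondrial UMIs). Alpha over beta gave 0 (pseudocount 0.5, no filter, summed UMIs, no replicate block) or 4 (hormones left out, edgeR with either scaling, DESeq2). No paired analysis was possible because the 3 replicates form 1 group, so replicate numbers pair no groups; the fit has the library as block instead.

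Limits: 2 libraries, 12 and 13 cells in the smallest library 1 classes, shallow mural and Schwann cells, and no test for Schwann, B, T or NK and duct cells. With at most 10% mitochondrial UMIs under 10 library 1 fibroblasts remained, and without Ppy-positive endocrine cells too few delta cells, so those comparisons were not run. RNA levels say nothing of protein in the matrix.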

Other observations

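Duct cells of the joint table (13 cells) had a collagen sum of 2.82 per 10000, led by Col27a1 at 0.906, Col18a1 at 0.780 and Col4a1 at 0.372. Joint-table B cells had 102 Col4a1 UMIs in 4 of 82 cells and 58 Col4a2 UMIs in 3 cells, and a collagen sum of 2.53 per 10000. Col4a1 was 63.8% of these UMIs, against 63.1% in joint-table endothelial cells. The B cell cluster had Hmgb2, Hist1h2ap and Top2a among its leading genes beside Igkc, Cd79a, Cd79b and Ighm. Whether the few cells with these UMIs are B cells was not tested. T or NK cells had a sum of 1.28. In the unnamed cells led by Cxcl13, Dcn and Saa3, Col1a2 was at 80.3 and 47.0 per 10000 and Col3a1 at 74.8 and 32.6.

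The 3 library 1 cells that clustered with B cells were not used, as the B cell markers of that table were at 0 in them. Their collagen sum was 31.9 per 10000, led by Col1a2, Col3a1 and Col1a1, and 2 of them held 10 or more Col1a1 UMIs.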
